A study of Mus musculus with 34 samples.

Results

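Albumin, the 2 fetuins and 7 other carrier proteins of blood plasma were followed at the RNA level in mouse liver. The 10 genes were chosen by name (Alb, Gc, Ahsg, Fetub, Ttr, Rbp4, Trf, Hpx, Cp and Ambp), and all 10 were found among the 37583 genes of the deposited files. The study compared livers of F1 (C57Bl6/CBA) mice at 45 days of age. One group was labelled wild type (WT). The other was labelled Setd8lox/lox-Alb-Cre (here KO): both alleles of Setd8 carried a floxed exon 7, and the Cre recombinase was driven by Alb-Cre, a transgene active in hepatocytes that uses the promoter of 1 of the 10 genes described here. Setd8, also named Kmt5a or PR-Set7, encodes the methyltransferase that places the first methyl group on lysine 20 of histone H4. The labels do not say whether WT animals carried the floxed alleles or the transgene, and they give no sex. Messenger RNA selected by its poly(A) tail was sequenced from 3 WT and 3 KO livers that received no treatment. Nascent RNA came from 2 methods, each with a single WT and a single KO library (1 against 1): nuclear RNA that had taken up Ethydyl-Uridine (EU, spelled as in the labels) in the animal, given at 25 mg per kg 30 min before death, and RNA from isolated nuclei that ran on for 3 min with Br-UTP (Br). The 24 chromatin samples of the series were not analysed here.

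Hepatocytes make most of the protein of blood plasma and secrete it. Albumin (Alb) carries fatty acids, hormones and drugs and holds water in the vessels, and its relative Gc is the vitamin D-binding protein. The fetuins Ahsg and Fetub belong to the cystatin superfamily. Fetuin-A (Ahsg) keeps calcium phosphate from precipitating in blood, and fetuin-B (Fetub) inhibits the proteases that harden the coat of the egg. Transthyretin (Ttr) carries thyroid hormone and also binds retinol-binding protein 4 (Rbp4), which brings vitamin A to the tissues. Transferrin (Trf) carries iron, hemopexin (Hpx) binds free heme, and ceruloplasmin (Cp) is a copper-containing ferroxidase. Ambp encodes a precursor that is cut into the lipocalin alpha-1-microglobulin and bikunin, the light chain of the inter-alpha-inhibitors.

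Liver transcription factors such as C/EBP proteins act at the promoters of many plasma protein genes, with the albumin promoter as the textbook example. The 150 bases before the annotated start are shown for the albumin pair and for the fetuin pair, because KO mRNA values of Gc and Fetub lay below all WT values while those of their relatives Alb and Ahsg did not. The sequences are from RefSeq (GRCm38.p6, a later build than the mm9 named for the deposited data), 5′ to 3′ on the strand of the gene. Capitals mark matches, on either strand, to the TATA box letters TATAAA, to a box spelled CCAAT, to the letters GTTAAT or to the C/EBP-type site TTGCNNAA. Adjoining or overlapping matches run together.
Alb, chr5:90460720-90460869, plus strand: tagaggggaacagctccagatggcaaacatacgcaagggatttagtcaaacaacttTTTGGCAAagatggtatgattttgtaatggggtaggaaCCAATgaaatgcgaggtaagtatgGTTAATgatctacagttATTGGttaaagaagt
Gc, chr5:89457899-89458048, minus strand: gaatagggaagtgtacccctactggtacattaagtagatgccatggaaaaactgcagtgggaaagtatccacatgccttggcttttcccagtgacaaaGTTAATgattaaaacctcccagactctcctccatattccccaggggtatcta
Ahsg, chr16:22891865-22892014, plus strand: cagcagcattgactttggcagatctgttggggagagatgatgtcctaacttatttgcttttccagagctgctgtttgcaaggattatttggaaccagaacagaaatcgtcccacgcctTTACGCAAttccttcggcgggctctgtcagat
Fetub, first of 2 starts, chr16:22918232-22918381, plus strand: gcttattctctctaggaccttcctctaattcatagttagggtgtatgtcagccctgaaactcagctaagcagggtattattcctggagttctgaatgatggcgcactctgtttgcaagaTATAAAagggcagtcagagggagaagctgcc

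These sequences differ in which motifs they hold, and some motifs are shared. Alb and Gc each hold GTTAAT, with its first base 32 and 52 bases before the start. Alb and Ahsg each hold a C/EBP-type match on the reverse strand, which begins 94 and 32 bases before the start. Alb also holds 2 CCAAT matches, and the first Fetub start has a TATA box 31 bases before it. Searched over 250 bases before each start, the 11 promoters of the 8 matched genes held GTTAAT in 3, TTGCNNAA in 5, CCAAT in 7 and TATAAA in 3. Of all 32851 promoter windows of that length, 6.43% hold GTTAAT, 9.56% TTGCNNAA, 33.8% CCAAT and 12.4% TATAAA. The second Fetub start has none of the 4 motifs in its window. A match describes the letters and is not evidence of binding.

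The deposited mRNA values are reads that the authors scaled between the 6 libraries and rounded, and they are called scaled values below. They summed to between 18069344 and 25820906 per library, and the nascent libraries held between 2317840 and 10833287 reads. WT replicate 3 stood apart from the rest, with 20077 genes above 0 against 24497 to 26247 elsewhere and the highest sum, so several results are also given without it. Setd8 itself was not lower in the libraries labelled KO: it measured 593, 615 and 1076 in WT against 1199, 1040 and 1075 in KO (limma adjusted p = 0.244). Because the values cover the whole gene, they are only a partial check on the removal of 1 exon. Hepatocyte markers were abundant in all 6 libraries: 10 of them (among them Cps1, Arg1 and Asgr1) summed to between 396998 and 654864 in WT and between 319241 and 606737 in KO, and limma, edgeR and DESeq2 called 0 of the 10 (0 with an unadjusted limma p under 0.05, against 20.0% of all genes tested). The labels number the replicates without saying that each is a separate animal, so the p-values reflect only how much these libraries vary, which may be technical. In whole liver, fewer cells of a type and less RNA per cell cannot be told apart.

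Carrier mRNAs filled a large part of each library. Together the 10 genes held 8.41%, 7.99% and 10.2% of all scaled values in the WT libraries and 9.63%, 9.85% and 9.14% in the KO libraries. The groups overlapped, and the mean share was 8.85% ± 1.15 for WT against 9.54% ± 0.366 for KO (SD, n = 3 for both, exact two-sided permutation p = 0.4, where the smallest p that 3 against 3 can give is 0.1). The difference of the means was 0.687 percentage points and became 1.34 without WT replicate 3. Alb ranked first of all genes in every library. It accounted for 5.34%, 5.24% and 7.83% of the WT libraries and 6.22%, 6.73% and 6.41% of the KO libraries.

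Per kilobase of annotated exon, the order of the 10 mRNAs in WT was Alb, Ahsg, Gc, Hpx, Ttr, Rbp4, Fetub, Ambp, Trf and Cp. The scaled value per kilobase ran from 682487 ± 269445 for Alb to 1880 ± 247 for Cp (SD, n = 3). The 3 WT values of Hpx overlapped those of both its neighbours, Gc and Ttr, while the other neighbours in that order were apart. In KO the order was Alb, Ahsg, Ttr, Hpx, Gc, Rbp4, Ambp, Fetub, Trf and Cp. Ttr moved from place 5 to place 3, Gc from 3 to 5 and Fetub from 7 to 8. The KO values of Ttr and Hpx overlapped, as did those of Gc and Rbp4 and of Fetub and Trf, and the other neighbours in the KO order were apart.

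Of the 10 carrier genes, Fetub was the only one that limma called in mRNA: it fell, and 9 did not pass. Among all 16813 genes tested, 2.71% were called in either direction, 1.36% as lower and 1.35% as higher in KO (limma, Benjamini-Hochberg adjusted p under 0.05). The shares were 3.03% and 3.07% with edgeR (RLE and TMM) and 10.8% with DESeq2, which called 3 of the 10 carriers. Among the 215 tested genes with a mean at least that of Cp, the lowest of the 10, the share was 5.12%, so that 1 call in 10 is near what abundant genes gave. The median log2 difference was 0.01 over the 10 genes and 0.0023 over all genes tested. The groups did not overlap for 5 of the 10 (Fetub and Gc below, Ttr, Ambp and Ahsg above), against 26.0% of all genes tested (12.8% below and 13.2% above) and 37.7% of the 215. The plot of scaled values by library shows each gene on its own scale.

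**Figure D1:**
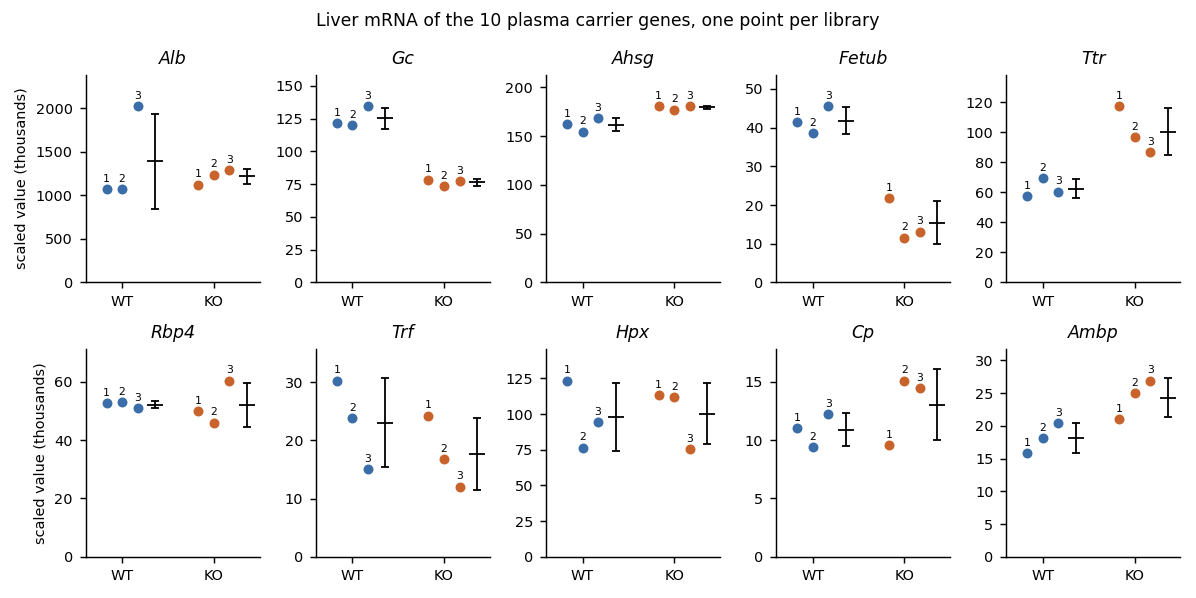
Scaled mRNA values (in units of 1000, linear axes from 0) of the 10 genes in 3 WT (blue) and 3 KO (orange) libraries. Numbers mark the replicate, and the bar beside each group gives the mean and SD. The KO points of Fetub and Gc lie below all WT points, those of Ttr, Ambp and Ahsg lie above, and Alb in WT replicate 3 stands at 2021012.

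Fetub measured 41492, 38500 and 45534 in WT against 21701, 11563 and 13150 in KO. Every KO library lay below every WT library, and KO replicate 1 was the highest of the KO libraries. The mean fell from 41842 ± 3530 to 15471 ± 5453 (SD, n = 3 for both). On the log2 scale this was -1.49 with an SE of 0.27 (limma adjusted p = 0.0337), a 2.80-fold fall. Direction and size did not depend on a single library, with 2.47-fold to 3.39-fold when each was left out. The call was lost in 4 of those 6 fits, without WT replicate 1, WT replicate 2, KO replicate 2 or KO replicate 3 (limma adjusted p up to 0.176). The other 8 settings, edgeR and DESeq2 among them, called it.

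Ahsg, the other fetuin, had 162406, 154688 and 168139 in WT against 180453, 177300 and 180695 in KO. The KO values were all slightly above the WT values, 1.11-fold on average (log2 0.15, 95% interval -0.34 to 0.64, limma adjusted p = 0.754), and did not pass the test. The ratio of Fetub to Ahsg within a library does not depend on scaling between libraries. It was 0.255, 0.249 and 0.271 in WT against 0.120, 0.0652 and 0.0728 in KO. The fetuin ratio was thus 3.00-fold lower in KO on average, without overlap (exact permutation p = 0.1, the smallest the design allows, for a ratio chosen after the values were seen).

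In the gene order of chromosome 16 (RefSeq), Ahsg and Fetub lie beside 3 relatives: Hrg (histidine-rich glycoprotein) and Kng2 and Kng1, which encode kininogens, the precursors of kinins. Over these 5 genes of the cystatin family, limma called 2 as lower (Fetub and Kng1) and 0 as higher, with a median log2 difference of -0.61. EdgeR called 2 and DESeq2 3 (Kng2 too). Over all genes tested, limma called 2.71% and DESeq2 10.8%, and limma called 5.12% of the 215 abundant genes. Fetub is itself a carrier, and with the carriers set aside limma called 1 of 3 genes. Kng1 had 37334, 37458 and 44426 in WT against 17035, 17961 and 19657 in KO, and fell 2.18-fold (limma adjusted p = 0.0310). Its call held when WT replicate 3 was left out and was lost with any of the other 5 libraries left out, with a fold between 2.06 and 2.26. Kng2 was 1.52-fold lower without overlap (7208, 6092 and 5354 against 3768, 4299 and 4112) and did not pass with limma (adjusted p = 0.134). Hrg had 6180, 8346 and 21389 in WT, the last in WT replicate 3, and 5965, 9409 and 11878 in KO, and its groups overlapped.

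**Figure D2:**
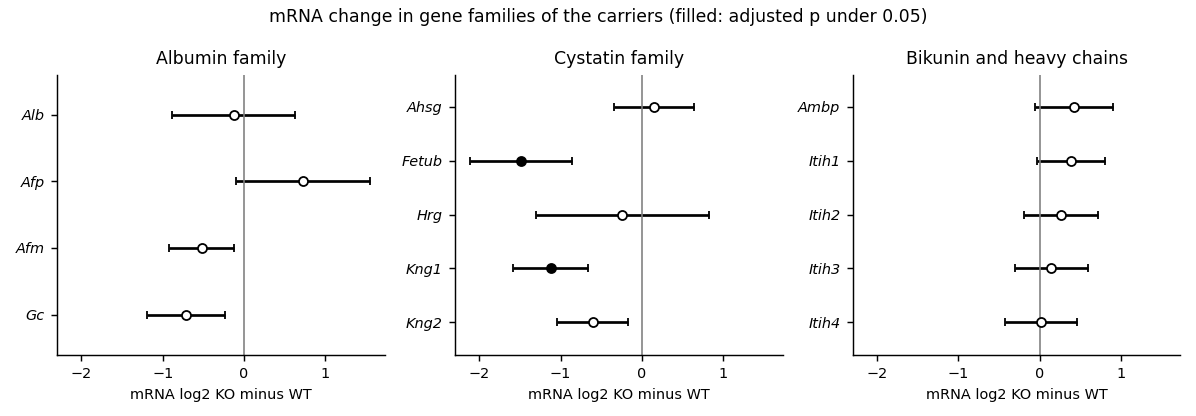
Log2 difference of mRNA, KO minus WT, with its 95% interval (limma, 3 and 3 libraries) for 3 families of carrier genes. Filled points passed an adjusted p under 0.05: Fetub and Kng1 passed, while no gene of the albumin family or of the bikunin group did.

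Alb measured 1070960, 1072564 and 2021012 in WT against 1123169, 1237721 and 1289436 in KO. The KO values lay between the pair of lower WT values and WT replicate 3. The log2 difference was -0.12 (95% interval -0.88 to 0.63, limma adjusted p = 0.881), and it was 0.18 without WT replicate 3, so that 1 library set its sign. Gc had 121498, 119961 and 134342 in WT against 78478, 73522 and 77018 in KO. All KO values were below all WT values, 1.64-fold on average (log2 -0.71, SE 0.21, 95% interval -1.19 to -0.23), and limma did not call it (adjusted p = 0.111). DESeq2 on re-estimated reads did (adjusted p = 0.000208, in a range of 0.000208 to 0.390 over the alternatives).

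Against Ahsg, which varied little, Gc stood at a ratio of 0.748, 0.776 and 0.799 in WT against 0.435, 0.415 and 0.426 in KO. These groups did not overlap (exact permutation p = 0.1, the smallest possible here, ratio chosen after the values were seen). Ahsg was itself slightly higher in every KO library, and the mean ratio fell 1.82-fold where Gc alone fell 1.64-fold. Against its relative Alb, Gc gave 0.113, 0.112 and 0.0665 in WT against 0.0699, 0.0594 and 0.0597 in KO, and these groups overlapped (exact permutation p = 0.2). Among the other genes of the albumin family, Afm (afamin, a vitamin E-binding protein) had 7099, 6825 and 6307 in WT against 4512, 4820 and 4759 in KO, 1.43-fold lower without passing (limma adjusted p = 0.147). Afp (alpha-fetoprotein, the fetal counterpart of albumin) was scarce, with 47 to 57 in WT and 53 to 114 in KO (limma adjusted p = 0.311). Limma called 0 of the 4 genes of this family, edgeR 0 and DESeq2 2 (Gc and Afm, which also had an unadjusted limma p under 0.05).

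Ttr had 57668, 69554 and 60566 in WT against 117433, 96773 and 86942 in KO. Every KO library exceeded every WT library, and the mean was 1.60-fold higher (log2 0.67, SE 0.23, 95% interval 0.15 to 1.20). Limma did not call it (adjusted p = 0.151), whereas DESeq2 did (adjusted p = 0.0177, in a range of 0.0177 to 0.418 over the alternatives). Rbp4, its partner in plasma, had 52575, 53004 and 50857 in WT against 49803, 45981 and 60393 in KO. The groups overlapped, with a log2 difference of -0.01 (95% interval -0.50 to 0.48). The ratio of Ttr to Rbp4 was 1.10, 1.31 and 1.19 in WT against 2.36, 2.10 and 1.44 in KO, higher in every KO library (exact permutation p = 0.1, chosen after the values were seen). Of 6 such ratios computed, 3 separated the groups, and Gc to Alb, Cp to Trf and Hpx to Trf overlapped (exact permutation p = 0.2, 0.3 and 0.3).

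**Figure D3:**
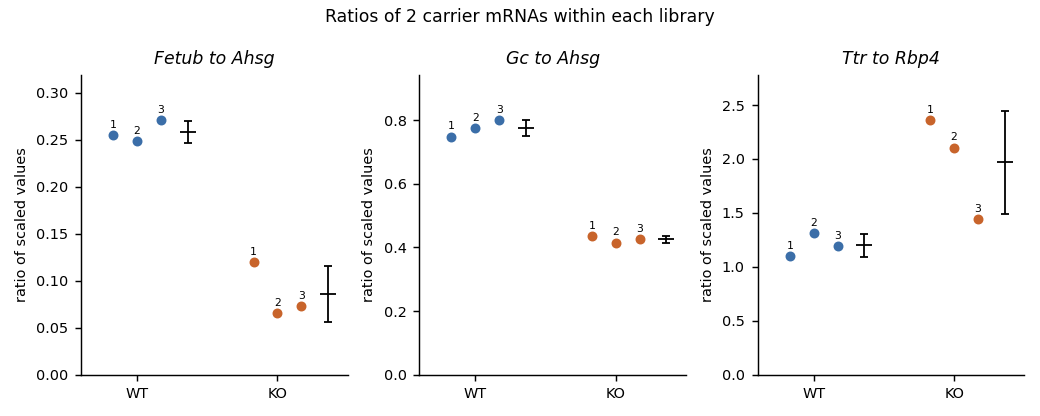
Ratio of scaled values of 2 carrier mRNAs, for the 3 of 6 computed ratios that separated the groups, within each of 3 WT (blue) and 3 KO (orange) libraries, on linear axes from 0, with mean and SD beside each group and numbers for the replicates. Fetub to Ahsg and Gc to Ahsg were lower in every KO library and Ttr to Rbp4 higher, with 1.44 in KO replicate 3 the closest to WT.

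Of 11 genes for the transport and storage of retinol and thyroid hormone, limma called 1 as higher and 0 as lower, with a median of 0.10. DESeq2 called 4 (Ttr, Serpina7 and Dio1 as higher, Aldh1a1 as lower), against 10.8% of all genes tested. An unadjusted limma p under 0.05 was found for 5 of the 11, against 20.0% of all genes. Dio1, the deiodinase that activates thyroid hormone in liver and a known target of that hormone, had 450, 330 and 124 in WT against 2153, 3597 and 3447 in KO and rose 11.3-fold (log2 3.49, limma adjusted p = 0.0115). Its fold was 7.74 without WT replicate 3 and up to 14.7 without another library, and leaving out WT replicate 2 or KO replicate 2 ended the call. Serpina7 (thyroxine-binding globulin) had 273, 190 and 493 in WT against 1235, 783 and 596 in KO (limma adjusted p = 0.0829). Aldh1a1, which makes retinoic acid, had 18806, 21127 and 16993 in WT against 12746, 13414 and 12510 in KO, without overlap (limma adjusted p = 0.161). Stra6l, a liver receptor for retinol-binding protein, had 1158 to 1531 in WT and 1642 to 2631 in KO (limma adjusted p = 0.145).

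The metal and heme carriers Trf, Hpx and Cp did not pass with limma, edgeR or DESeq2. Trf had 30289, 23784 and 15008 in WT against 24259, 16750 and 12072 in KO, so both groups spread over about the same range (log2 -0.38, 95% interval -1.17 to 0.41, limma adjusted p = 0.595). Its log2 difference was -0.66 without WT replicate 3 (limma adjusted p = 0.199) and -0.13 without KO replicate 3. Hpx varied between 76449 and 123432 in WT and between 75512 and 113371 in KO (log2 0.04, 95% interval -0.61 to 0.68). Cp varied between 9409 and 12271 in WT and between 9570 and 15118 in KO (log2 0.24, 95% interval -0.32 to 0.80). These intervals are wide and leave room for changes of over 1.5-fold, so no similarity is shown.

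Of 24 genes of iron, heme and copper handling, these 3 included, limma called Hmox1 as higher and 0 as lower, with a median of 0.08. DESeq2 called 4 (Hmox1, Hp and Hfe as higher, Aco1 as lower). Over all genes tested, limma called 2.71% and DESeq2 10.8%. An unadjusted limma p under 0.05 was found for 10 of the 24, against 20.0% of all genes. The groups did not overlap for 11 of the 24, against 26.0% of all genes. Hmox1 (heme oxygenase, which breaks heme down) had 200, 208 and 221 in WT against 814, 675 and 374 in KO, a 2.81-fold rise (limma adjusted p = 0.0416), which was not called in 4 of the 6 fits that leave out a library. Haptoglobin (Hp), the binder of free hemoglobin, had 64024, 47739 and 38069 in WT against 99009, 92648 and 99674 in KO, without overlap (limma adjusted p = 0.0763). Hfe, a regulator of hepcidin, had 902 to 1057 in WT and 1416 to 1641 in KO, and Aco1, the cytosolic aconitase that also acts as an iron regulatory protein, had 4005 to 5998 and 2979 to 3438 (limma adjusted p = 0.0739 and 0.152). Transferrin receptors did not pass with limma or DESeq2: Tfrc had 152 to 297 in WT and 188 to 347 in KO, and Tfr2 9249 to 12219 and 9753 to 11135. Hamp, which encodes the iron hormone hepcidin, had 7090, 5186 and 15184 in WT against 2038, 3642 and 13552 in KO, with replicate 3 highest in each group.

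Ambp had 15852, 18094 and 20370 in WT against 21057, 24935 and 26910 in KO. The groups did not overlap, but the highest WT and the lowest KO value were close (log2 0.42, 95% interval -0.06 to 0.91, limma adjusted p = 0.310). Itih1 to Itih4 encode the heavy chains that join bikunin. Itih1 had 13039, 13586 and 12410 in WT against 17506, 17333 and 16299 in KO without passing (limma adjusted p = 0.284), and Itih2, Itih3 and Itih4 overlapped between the groups. Limma, edgeR and DESeq2 called 0 of these 5 genes, 0 had an unadjusted limma p under 0.05, and their median log2 difference was 0.26.

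The remaining lists hold receptors, other carriers and transcription factors. An unadjusted limma p under 0.05 was found for 1 of 6, 4 of 11 and 5 of 15 of their tested genes, against 20.0% of all genes. Over all genes tested, limma called 2.71% and DESeq2 10.8%. Of 6 genes for receptors and recycling of albumin and vitamin D-binding protein, limma and edgeR called 0 and DESeq2 called 1, with a median of -0.33. That gene and the only one with an unadjusted limma p under 0.05 was Cyp27a1, a mitochondrial sterol hydroxylase that can also hydroxylate vitamin D, which had 14021 to 15398 in WT and 7588 to 9681 in KO (limma adjusted p = 0.0678). Of 11 tested genes of other liver plasma carriers, limma called 1 and DESeq2 2, with a median of 0.21. Limma called Lcn2 (lipocalin 2, a binder of bacterial siderophores), with 103, 80 and 44 in WT against 1572, 845 and 405 in KO (limma adjusted p = 0.0168, not called in 3 of the 6 fits that leave out a library). DESeq2 also called Sepp1 (selenoprotein P, the plasma carrier of selenium), with 102237, 103815 and 199282 in WT against 55659, 78213 and 73522 in KO, lower without overlap (limma adjusted p = 0.165). Of 15 hepatocyte transcription factors, Tef, a circadian transcription factor, fell 2.20-fold (limma adjusted p = 0.0396, not called in 4 of 6) and limma called none of the other 14, with a median of -0.29. DESeq2 called Tef, Dbp and Onecut1. Dbp, a circadian relative of Tef, had 4623, 3837 and 3499 in WT against 1918, 2544 and 1942 in KO (limma adjusted p = 0.0586), and Onecut1 overlapped between the groups, with 157 to 780 in WT and 109 to 213 in KO (limma adjusted p = 0.237).

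Most macrophage markers moved along with the groups. All 7 were higher in KO by their fitted difference. The groups did not overlap for 5 of the 7, against 26.0% of all genes tested, while Marco and Cd5l overlapped. An unadjusted limma p under 0.05 was found for 6 of the 7, against 20.0% of all genes. The sum of the 7 markers ran from 4547 to 6624 in WT and from 7144 to 16150 in KO. Limma called 1 of them, Csf1r, as higher (not called in 4 of the 6 fits that leave out a library). EdgeR called 2 of the 7 and DESeq2 called 5 (Adgre1, Clec4f, Cd68, Csf1r and Timd4), where DESeq2 called 10.8% of all genes. Stellate cell and fibroblast markers summed to between 2042 and 2886 in WT and between 3262 and 5251 in KO. Limma called Pdgfrb among the 7 (lost in 5 of the 6 fits that leave out a library), and DESeq2 also called Col1a1 as higher. Acta2 stood at a log2 difference of -0.56. Bile duct markers summed to between 549 and 718 in WT and between 1042 and 1962 in KO, with Spp1 called among 6 (lost in 4 of the 6 fits). Without Spp1 the other 5 summed to 316, 248 and 248 in WT against 393, 262 and 239 in KO and overlapped. Endothelial, lymphocyte and erythroid sums overlapped. Limma and edgeR called 0 of the 6 endothelial markers, and DESeq2 called 1 (Cdh5). For 3 of these 6 markers the groups did not overlap, against 26.0% of all genes tested. An unadjusted limma p under 0.05 was also found for 3 of the 6, against 20.0% of all genes. The part of any of these cell types in the carrier values was not tested.

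Likeness between carriers was described by the shape of their values over the 6 mRNA libraries, which takes in the difference between the groups. The measure was the root mean square difference of log2 values after each gene was centred on its mean, so that 0 means the same profile. The closest pair of carriers was Ahsg and Rbp4, at 0.15, and the 3 most distant were Fetub with Ttr, Ambp and Cp, at 1.10, 1.03 and 0.99. The carrier nearest to Fetub was Gc, at 0.464. Over all genes tested, the 3 closest to Fetub were Ano3, Slc9a3r1 and Ap5b1, at 0.13, 0.13 and 0.14. Slc9a3r1, a scaffold protein of the cell membrane, had 9369, 8399 and 8587 in WT against 5162, 2953 and 2847 in KO. Ap5b1, a subunit of an adaptor complex, had 303, 256 and 402 against 163, 96 and 91. Ano3 was at a low level, with 11 to 14 in WT and 3 to 6 in KO.

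In newly made RNA, carriers held a smaller share of the reads than of the scaled values in mRNA. These shares are of unlike totals, nuclear or run-on RNA against poly(A)-selected RNA, and their difference was not tested. The 10 genes held 2.75% of reads in EU WT (95% exact Clopper-Pearson interval 2.74 to 2.76) and 2.07% in EU KO (2.06 to 2.08), and 0.813% in Br WT (0.803 to 0.823) and 0.788% in Br KO (0.777 to 0.800). Alb alone held 2.26% and 1.65% of EU reads and 0.434% and 0.385% of Br reads. With 1 library per genotype no test between genotypes was possible. The intervals cover counting error only, and PCR copies are not separate molecules. KO to WT ratios are given as log2 of the authors' RPKM plus 0.5, less the median of 13494 genes. Of the 10 carriers, 0 differed by 2-fold or more in either method, where 38.0% of all genes did in EU (19.0% higher and 19.0% lower) and 15.2% in Br (7.86% higher and 7.39% lower), low-count genes included. The median over the 10 was -0.34 in EU and -0.03 in Br, against 0 for all genes by centring.

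Cell type markers also differed between the nascent libraries. The 10 hepatocyte markers held 3.43% of EU reads in WT and 2.03% in KO, and 1.23% and 0.720% of Br reads. By ratio, 8 of the 10 were below 0 in EU (median -0.87, with Tat at -2.11, Arg1 at -2.01 and Cps1 at -1.68) and 9 of 10 in Br (median -0.69). The 7 stellate cell and fibroblast markers had 953 and 5375 EU reads, 0.00880% and 0.0963% of the library, with all 5 measurable ratios above 0 (Acta2 4.04, Col3a1 3.71, Col1a1 3.13), and 0.0163% and 0.0294% of Br reads. The 4 erythroid markers held 0.00662% of EU reads in WT and 0.165% in KO, where hemoglobin made up almost all (Hba-a2 had 184 and 4629 reads, while Alas2 had 342 and 2), and 0.00849% and 0.00807% in Br. Macrophage markers held 0.00246% and 0.00586% in EU and 0.0153% and 0.0171% in Br, with 3 ratios above 0 and 3 below in each method. Bile duct markers held 0.000785% and 0.00423% in EU, with 4 ratios above 0 and 1 below. Endothelial markers held 0.00656% and 0.00933% in EU, but 3 ratios were above 0 and 3 below. Lymphocyte markers had 12 and 4 EU reads in all. The part of these differences in the carrier ratios was not tested.

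Gc, Alb, Trf and Rbp4 had negative differences in mRNA, EU and Br, except that Alb mRNA turned positive without WT replicate 3 and Rbp4 mRNA, at -0.01, in several settings. The mRNA intervals of Alb, Trf and Rbp4 crossed 0, as did the Br intervals of Trf and Rbp4. The share of all genes with the same sign in all 3 data types was not computed. For Gc, EU gave 11958 reads in WT against 4166 in KO, which is -0.50 (-0.55 to -0.45). Br gave 1383 against 772, which is -0.40 (-0.52 to -0.27). Alb had 244515 and 92036 EU reads (-0.38, interval -0.40 to -0.37) and 13700 and 8935 Br reads (-0.17, interval -0.21 to -0.13), and these intervals do not overlap. Both genes thus took a smaller share of nascent reads in the KO library of each method. For Trf the EU ratio was -0.34 and the Br ratio -0.15, the latter with an interval of -0.39 to 0.08.

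Ahsg and Ttr had positive differences in all 3 data types, except that Ttr in EU was -0.0040 without centring. Ahsg gave a ratio of 0.16 (0.12 to 0.20) in EU, from 14351 and 7889 reads, and 0.23 (0.16 to 0.29) in Br, from 3933 and 3378. Ttr gave 0.06 (-0.02 to 0.15) in EU, from 3035 and 1560 reads, and 0.17 (0.07 to 0.27) in Br, from 1851 and 1529. The nascent ratios of Ttr were smaller than its mRNA difference of 0.67.

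Nascent Fetub differed between the methods. EU gave 1310 reads in WT and 684 in KO, a ratio of 0.09 (-0.05 to 0.22). Br gave 257 and 118 reads, a ratio of -0.68 (-1.0 to -0.36). The intervals do not overlap, so the methods disagree beyond counting error, and neither ratio reached the mRNA difference of -1.49. The ratio of Fetub to Ahsg reads was 0.0913 and 0.0867 in EU and 0.0653 and 0.0349 in Br, WT first.

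Of the other genes in this row on chromosome 16, Hrg, Kng2 and Kng1 were lower in Br and gave different signs in EU. In Br, Kng1 had 942 and 342 reads (-0.998), Kng2 442 and 186 (-0.80) and Hrg 831 and 397 (-0.62), all with intervals below 0. In EU, Kng1 stood at 0.33, Kng2 at -0.01 with an interval across 0, and Hrg at -0.57. Ahsg, at the end of this row of genes, was the only one of the 5 above 0 in Br.

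Rbp4, Hpx, Cp and Ambp also gave other values in EU than in Br. Cp stood at -0.52 in EU (-0.60 to -0.44) and 0.09 in Br (-0.07 to 0.24). Ambp stood at -0.57 (-0.71 to -0.45) and -0.01 (-0.18 to 0.16), and Rbp4 at -0.34 (-0.41 to -0.26) and -0.05 (-0.16 to 0.05). Hpx stood at -0.10 (-0.16 to -0.05) and 0.45 (0.32 to 0.59). In each of these 4 the Br ratio was the higher, without overlap of the intervals. Of the 10 carriers, the EU interval lay below 0 for 7 and above 0 for 1 (Ahsg). The Br interval lay below 0 for 3 (Alb, Gc and Fetub) and above 0 for 3 (Ahsg, Ttr and Hpx). The share of all genes with such intervals was not computed. The intervals narrow as reads rise and hold counting error only, so these counts are not a result about the carriers.

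**Figure D4:**
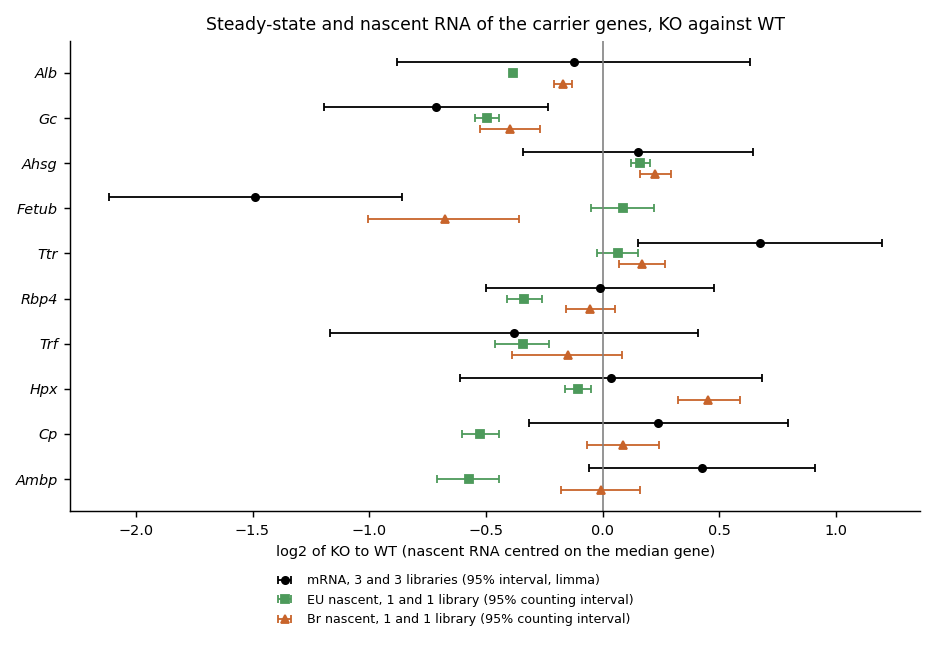
Log2 of KO to WT for the 10 genes in mRNA (black circles, 3 and 3 libraries, 95% limma interval), in EU nascent RNA (green squares) and in Br nascent RNA (orange triangles), the last 2 with 1 library per genotype, centred on the median gene and with 95% counting intervals. Gc lies left of 0 in all 3, Ahsg and Ttr lie right of 0 in all 3, and Fetub lies at -1.49 in mRNA, 0.09 in EU and -0.68 in Br.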

How the data were processed

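Liver mRNA (3 WT and 3 KO libraries) and nascent RNA (EU and Br, 1 WT and 1 KO each) were analysed. Per the submitters' processing notes, TopHat2, Bowtie2, Cufflinks, DESeq and genome mm9 were used, while the read counter, annotation and filters are not given in the sources used here. For mRNA the authors deposited a score: reads that the deposited table names as DESeq-normalized, in whole numbers. Nascent files hold deposited counts per gene. Every Br count was even and was divided by 2. A deposited table gives RPKM from the authors, whose gene lengths are not stated, so RPKM values were compared between WT and KO within each gene only. Shares of nascent reads and the ratio of Fetub to Ahsg reads used the counts.

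Limma 3.58.1 (R 4.3.3, eBayes with trend and robust) was run on log2 of scaled values after adding 1, for genes reaching 10 in at least 3 libraries, two-sided, with Benjamini-Hochberg adjustment over all genes. For edgeR 4.0.16 and DESeq2 1.42.0, reads were re-estimated from the step that rounding left in each library (approximate for 3 of them). Totals were 15640524 to 27111301. Nascent ratios used genes whose mean RPKM reached 1, and counting intervals are exact (Clopper-Pearson, 95%). Levels per kilobase used exons of GENCODE M21 basic. Code was tested on simulated data. The 10 genes, 15 further lists and tests were chosen with earlier results of these data known. Genes named were the 10, their family members and partners, up to 4 called genes per list in the main direction and 2 in the other, and the 3 genes closest to each called carrier. Stra6l, Serpina7, Cyp27a1, Aldh1a1, Hfe, Aco1, Sepp1, Dbp, Onecut1 and single cell type markers were named after their values were seen. Of 129 listed genes 128 were found (Hbb-b1 had no row). Alternatives were edgeR with RLE and TMM, DESeq2, no filter, TMM scaling, pseudocounts of 0.5 and 10, a replicate block and each library left out, and for nascent RNA pseudocounts of 0.1 and 2, a mean RPKM of 0.2 or 5, no centring and reads scaled to library size.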

Additional observations from a re-analysis of the deposited data

How the results depend on the processing

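The number of carrier genes called in mRNA was 1 in the main analysis and stayed at 1 with edgeR (RLE and TMM), without a filter, with TMM scaling, with pseudocounts of 0.5 and 10 and with a replicate block, each time Fetub. It was 3 with DESeq2 (Fetub, Gc and Ttr) and ran from 0 to 1 with a library left out, where fewer samples entered the fit. No other call among the 10 changed. Differences near 0 changed sign: Alb ran from -0.28 to 0.18 with a library left out, Hpx from -0.13 to 0.23 and Rbp4 from -0.124 to 0.073, and Rbp4 was 0.019 with edgeR and TMM and 0.081 with TMM scaling. Replicate numbers did not pair the libraries (correlations of deviations of 0.409, -0.242 and 0.198 for numbers 1, 2 and 3, and not every library was closest to its own number), so the block is a check only, and it changed no call among the 10 genes. Over all genes 455 were called, 1014 with the replicate block, 1782 with DESeq2, 1606 without WT replicate 3 and 28 to 286 without one of the other libraries. The cause was not tested. TMM scaling gave 294 up and 177 down in place of 227 and 228, and moved the median gene by 0.09. The difference in the share of the library ran from 0.256 to 1.34 percentage points with a library left out. No carrier passed 2-fold in nascent RNA under any of the 6 alternatives run per method, and 109 of 120 single values stayed within their counting interval.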
